A study of Homo sapiens with 12 samples.

Results

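The 8 genes that encode the subunits of condensin I and condensin II were taken by name from a table of 59251 genes measured by RNA-Seq in HL60 cells. SMC2 and SMC4 belong to both complexes, NCAPD2, NCAPG and NCAPH to condensin I, and NCAPD3, NCAPG2 and NCAPH2 to condensin II. All 8 passed the expression filter of edgeR, which kept 13318 genes. HL60, written HL-60 in the labels, is a human myeloid leukemia cell line, so every library came from the same line, grown in RPMI1640 with FBS. Cells were treated for 48 h with 1 μM all-trans retinoic acid (ATRA), with 1 μM palbociclib, an inhibitor of the cyclin-dependent kinases CDK4 and CDK6 (CDK4/6i), or with the 2 drugs in combination (CDK4/6i+ATRA). The controls were non-treated cells. Each of the 4 groups had 3 libraries that the labels call biological replicates and the study treats as independent experiments.

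Condensins are ring-shaped complexes that compact chromosomes by extruding loops of DNA. In each ring the ATPases SMC2 and SMC4 are joined by a kleisin subunit, NCAPH or NCAPH2, which carries a pair of HEAT-repeat subunits, NCAPD2 with NCAPG or NCAPD3 with NCAPG2. Condensin II is in the nucleus through interphase and starts to compact chromosomes in prophase, whereas most condensin I reaches them after the nuclear envelope breaks down. ATRA drives myeloid differentiation, and CDK4/6 inhibitors are known to hold cells in G1 by keeping the retinoblastoma protein active.

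The table held whole-number counts, with 12230923 to 18679544 per library and the smallest totals in the CDK4/6i+ATRA group (12230923 to 14415276). Values are given as CPM, the counts scaled to a common library total after TMM correction. Changes are log2 fold changes of edgeR, whose quasi-likelihood p-values were adjusted by the Benjamini-Hochberg method over all 13318 genes and called at 0.05. A floor of 3 counts lay between 0.156 and 0.275 CPM. Of 8 myeloid markers, MPO, CTSG, CD33, SPI1 and CEBPE were detected and ELANE, AZU1 and PRTN3 were listed at 0 in all 12 libraries. The table places these last genes on an alternate contig as well as on a chromosome, which it does for none of the condensin genes, so their 0 cannot be read as absence of expression. The summed level of the 8 myeloid markers was 6921 to 7244 CPM in non-treated cells, 1216 to 1267 CPM with ATRA, 4097 to 4217 CPM with CDK4/6i and 1239 to 1295 CPM with CDK4/6i+ATRA. Between non-treated and CDK4/6i+ATRA cells MPO went from 6336 to 6666 CPM down to 24.5 to 33.9 CPM, whereas SPI1 went from at most 304 to at least 838 CPM and CEBPE from at most 175 to at least 281 CPM. CD33 was at 91.9 to 96.7 CPM in the former and 93.8 to 103 CPM in the latter. Of 8 markers of T, B, erythroid, epithelial and stromal cells, only CD3E reached 1 CPM, and their sum was at most 3.27 CPM in any library. The part of either marker change in the results was not tested.

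In hg38 the files place SMC2 at chr9:104088263-104141419, SMC4 at chr3:160399650-160434953, NCAPD2 at chr12:6494102-6531955, NCAPG at chr4:17810979-17844865 and NCAPH at chr2:96335766-96377091, all on the plus strand. NCAPH2 lies at chr22:50508224-50524780 on the plus strand. NCAPD3, at chr11:134150113-134225461, and NCAPG2, at chr7:158631169-158704804, lie on the minus strand. Counts cover the exons of each gene. NCAPG shares 1634 bases, 35.6% of its exon bases, with LCORL on the opposite strand. LCORL held 677 counts over the 3 CDK4/6i+ATRA libraries. The library kit kept strand, but whether counting used it is not given in the sources used here.

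The promoter table of RefSeq (GRCh38.p14, 250 bases before to 50 after each start site) held 10 windows for 7 of the 8 genes, and NCAPH2 was not among them. The upstream parts of 3 genes are printed, those of the subunits that kept the most and the least mRNA with both drugs and that of the more abundant shared ATPase. Capitals mark the CHR element (TTTGAA or TTCGAA, on either strand), to which cell cycle repressor complexes bind, and the CCAAT box (CCAAT or, on the other strand, ATTGG), to which NF-Y binds. The upstream 250 bases of NCAPD2 (chr12:6493852-6494101, plus strand), NCAPH (chr2:96335516-96335765, plus strand) and SMC4 (chr3:160399400-160399649, plus strand) read:
NCAPD2: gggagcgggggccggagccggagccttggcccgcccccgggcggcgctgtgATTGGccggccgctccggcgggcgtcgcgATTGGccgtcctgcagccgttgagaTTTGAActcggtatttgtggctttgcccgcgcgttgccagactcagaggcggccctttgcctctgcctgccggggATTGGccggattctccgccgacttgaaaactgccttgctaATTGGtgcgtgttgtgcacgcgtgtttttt
NCAPH: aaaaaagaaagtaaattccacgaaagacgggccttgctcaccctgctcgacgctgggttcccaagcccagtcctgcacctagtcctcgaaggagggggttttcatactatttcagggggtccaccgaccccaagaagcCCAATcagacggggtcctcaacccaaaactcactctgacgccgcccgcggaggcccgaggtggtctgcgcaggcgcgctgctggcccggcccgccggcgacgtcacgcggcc
SMC4: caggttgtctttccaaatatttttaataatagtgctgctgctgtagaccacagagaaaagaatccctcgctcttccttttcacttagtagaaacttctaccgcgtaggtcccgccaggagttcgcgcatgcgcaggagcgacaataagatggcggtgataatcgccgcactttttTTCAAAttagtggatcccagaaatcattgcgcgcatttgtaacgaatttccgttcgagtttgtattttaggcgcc

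NCAPD2 had 1 CHR match and 4 CCAAT matches, the printed window of SMC4 had 1 CHR match and no CCAAT match, and NCAPH had 1 CCAAT match and no CHR match. A second window of SMC4, at another start site, had no match of any of the motifs searched. Among the other windows that are not printed, NCAPG had a CHR match that began 35 bases before its start site, and its upstream part overlapped an exon of DCAF16. NCAPG2 had a CHR match that began 35 bases after its start site. CHR matches occurred in 6 of the 10 windows, against 16.4% of 35116 windows of all genes. CCAAT matches occurred in 3 windows, against 34.6% of all windows. An E2F motif (TTTCCCGC, TTTGGCGC, TTTCGCGC or TTTGCCGC, on either strand) occurred in 1, the inner window of NCAPD3, against 3.31%. A match describes the letters in a window and was not tested as a binding site.

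Per kilobase of canonical transcript in non-treated cells, NCAPD2 stood highest at 77.8 ± 2.03 CPM per kb (SD, n = 3), followed by SMC4 at 63.3 ± 0.631 (SD, n = 3). NCAPD3 reached 33.6 ± 1.48 CPM per kb. NCAPG2 (27.6), NCAPH2 (26.0) and NCAPG (25.6 CPM per kb) followed, and their ranges overlapped between neighbours. NCAPH reached 21.2 and SMC2 14.8 CPM per kb, each below its upper neighbour in every library. The canonical length was used after the data were seen. With the union of all exons as the length, SMC2 dropped to 5.89 and NCAPG2 to 14.7 CPM per kb. The remaining subunits moved less.

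The order of the subunits changed with treatment. With ATRA, SMC4 (85.0) and NCAPD2 (81.9 CPM per kb) overlapped at the top and SMC2 was again lowest. With CDK4/6i, NCAPD2 led at 35.3, NCAPD3 followed at 20.8 CPM per kb ahead of SMC4, and NCAPH (2.3) and NCAPG (1.58 CPM per kb) were lowest, each below its upper neighbour in every library. With CDK4/6i+ATRA, NCAPD2 stood at 17.2 ± 0.447 CPM per kb (SD, n = 3), clear of SMC4 at 5.92 ± 0.492. NCAPH2 (3.98) and NCAPD3 (3.92 CPM per kb) overlapped in the middle. NCAPG2 (1.56) and SMC2 (1.01 CPM per kb) did not overlap, whereas NCAPG (0.384) and NCAPH (0.234 CPM per kb) overlapped at the bottom.

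The subunit mRNAs ranged from 85.2% (NCAPH2) to 134% (SMC4) of the non-treated mean with ATRA, fell with CDK4/6i and fell further with CDK4/6i+ATRA. With CDK4/6i+ATRA all 8 genes were called lower, against 40.7% of all genes tested, and their median log2 fold change was -3.65 against 0.02 over all genes. CDK4/6i alone lowered all 8, against 27.9% of all genes, with a median of -1.81 against 0.02. ATRA alone gave 4 calls, 2 lower (35.5% of all genes) and 2 higher (32.1%). The falls did not sort by complex. The kleisin and the G subunit of condensin I fell most, to 1.11% ± 0.39 (NCAPH) and 1.5% ± 0.625 (NCAPG) of the non-treated mean with both drugs, whereas the D subunit of the same complex kept the largest share of all 8, 22.1% ± 0.575 (NCAPD2; SD, n = 3). In such bulk libraries fewer cells that express a gene and less RNA of it per cell cannot be told apart. The 3 comparisons against non-treated cells share the same control libraries.

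**Figure D1:**
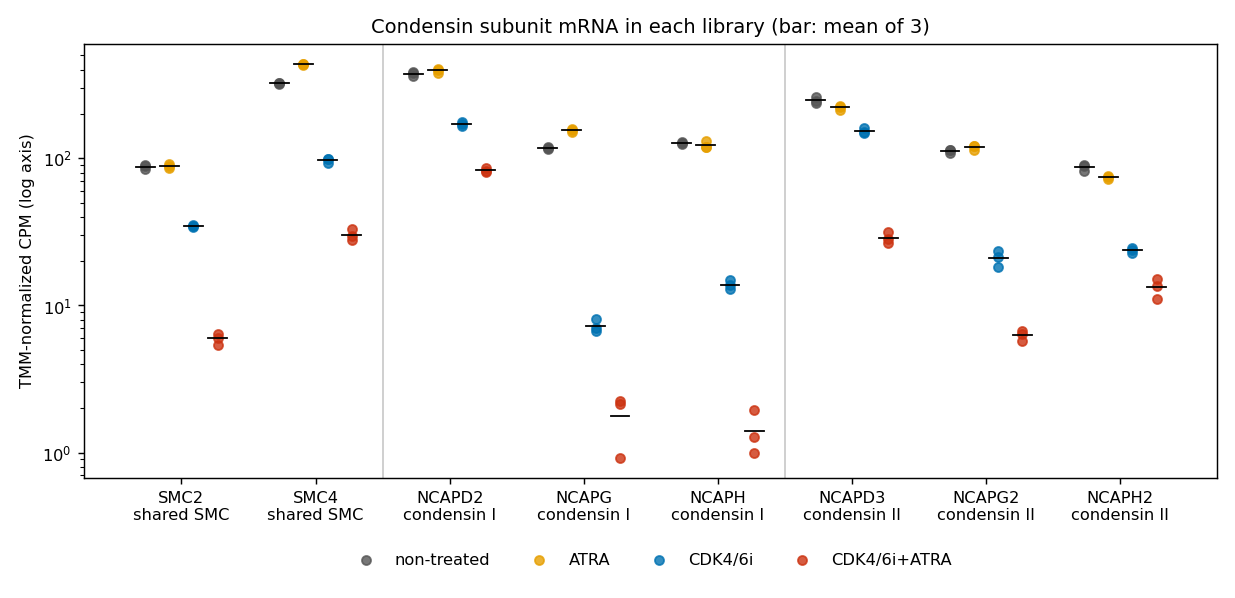
TMM-normalized CPM (log axis) of the 8 condensin genes in each of the 12 libraries, coloured by treatment, with a bar at the mean of 3. The CDK4/6i libraries of every gene lie below its non-treated libraries and the CDK4/6i+ATRA libraries below those, down to 0.917 CPM for NCAPG and 0.992 CPM for NCAPH.

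The shared ATPases responded to different degrees. SMC4, which binds ATP together with SMC2 at the head of the ring, measured 321, 327 and 324 CPM in non-treated cells and 428, 437 and 439 CPM with ATRA. It measured 93.3, 99.2 and 98.4 CPM with CDK4/6i and 29.8, 33.0 and 28.0 CPM with CDK4/6i+ATRA. The 4 groups did not overlap, with ATRA above the controls and both CDK4/6i groups below them. SMC4 rose by a log2 fold change of 0.42 ± 0.036 (SE) with ATRA (edgeR, adjusted p = 7.6e-15). Its change was -1.74 ± 0.0397 with CDK4/6i (edgeR, adjusted p = 2.5e-37) and -3.42 ± 0.0547 with CDK4/6i+ATRA (edgeR, adjusted p = 1.0e-46).

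SMC2 measured 84.9, 89.9 and 88.6 CPM in non-treated cells and 86.2, 91.9 and 88.8 CPM with ATRA, so that these groups overlapped. The levels were 35.4, 34.7 and 34.0 CPM with CDK4/6i and 5.41, 6.06 and 6.45 CPM with CDK4/6i+ATRA, and neither of these groups overlapped any other. The log2 fold change with ATRA was 0.02, with a 95% interval from -0.08 to 0.11 (edgeR, adjusted p = 0.726). It was -1.34 ± 0.0531 with CDK4/6i (edgeR, adjusted p = 2.3e-27) and -3.87 ± 0.103 with both drugs (edgeR, adjusted p = 2.4e-40). SMC2 thus fell less than SMC4 with CDK4/6i alone and more with the combination.

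The D subunits, HEAT-repeat proteins, had the smallest falls of the 8 genes with CDK4/6i alone. NCAPD2 of condensin I measured 378, 364 and 383 CPM in non-treated cells and 382, 397 and 406 CPM with ATRA. With CDK4/6i it measured 170, 177 and 165 CPM, and with CDK4/6i+ATRA 81.9, 81.3 and 85.3 CPM. The highest combination library was below the lowest CDK4/6i library. Its log2 fold change was 0.07 with ATRA, with a 95% interval from 0.00 to 0.15 (edgeR, adjusted p = 0.0632), and this value passed the threshold in several alternatives, among them DESeq2's size factors. The change was -1.14 ± 0.0377 with CDK4/6i (edgeR, adjusted p = 2.1e-30) and -2.18 ± 0.0432 with CDK4/6i+ATRA (edgeR, adjusted p = 3.4e-41), the smallest fall of the 8 genes in the combination.

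NCAPD3, the D subunit of condensin II, measured 237, 259 and 246 CPM in non-treated cells and 213, 224 and 227 CPM with ATRA. It measured 150, 149 and 160 CPM with CDK4/6i. With CDK4/6i+ATRA it measured 26.5, 31.7 and 28.5 CPM, far under all 9 other libraries. NCAPD3 was among the genes that fell with ATRA alone, by 0.16 on the log2 scale (SE 0.0399, edgeR, adjusted p = 4.7e-04). Its change was -0.69 ± 0.0409 with CDK4/6i (edgeR, adjusted p = 3.4e-20), the smallest CDK4/6i change of the 8, but -3.10 ± 0.0598 with both drugs (edgeR, adjusted p = 3.2e-43). Of its exon bases, 1889 (24%) are shared with JAM3 and 249 with VPS26B, both on the opposite strand. In the combination libraries JAM3 held 0 counts and VPS26B 2266.

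The G subunits, also HEAT-repeat proteins, differed between the complexes. NCAPG of condensin I measured 119, 117 and 116 CPM in non-treated cells and rose to 158, 152 and 155 CPM with ATRA. It measured 7.0, 8.07 and 6.73 CPM with CDK4/6i and 0.917, 2.14 and 2.23 CPM with CDK4/6i+ATRA. The last values rest on 10, 24 and 27 counts, and library 1 of the group stood apart from the other two. The log2 fold change was 0.40 ± 0.0458 with ATRA (edgeR, adjusted p = 7.7e-11). It was -4.02 ± 0.0854 with CDK4/6i (edgeR, adjusted p = 3.2e-42), the largest CDK4/6i change of the 8, and -6.04 ± 0.19 with both drugs (edgeR, adjusted p = 6.8e-44).

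NCAPG2 of condensin II measured 114, 113 and 108 CPM in non-treated cells and 113, 122 and 122 CPM with ATRA, and these groups overlapped. It measured 18.4, 23.4 and 21.5 CPM with CDK4/6i and 5.77, 6.69 and 6.45 CPM with CDK4/6i+ATRA, without overlap. The log2 fold change was 0.09 with ATRA, with a 95% interval from -0.01 to 0.19 (edgeR, adjusted p = 0.0916), a value that passed the threshold with DESeq2's size factors among other settings. It was -2.41 ± 0.063 with CDK4/6i (edgeR, adjusted p = 9.7e-36) and -4.15 ± 0.11 with CDK4/6i+ATRA (edgeR, adjusted p = 8.5e-41).

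The kleisins, which close the ring between the SMC heads, also differed between the complexes. NCAPH of condensin I measured 129, 126 and 128 CPM in non-treated cells and 120, 132 and 120 CPM with ATRA. It measured 12.9, 14.9 and 13.8 CPM with CDK4/6i and 1.28, 1.96 and 0.992 CPM with CDK4/6i+ATRA, from 14, 22 and 12 counts. The ATRA and control libraries overlapped, and the other groups did not. The log2 fold change was -0.04 with ATRA, with a 95% interval from -0.14 to 0.05 (edgeR, adjusted p = 0.428), and -3.21 ± 0.0688 with CDK4/6i (edgeR, adjusted p = 3.1e-40). With both drugs NCAPH changed by -6.50 ± 0.213 (edgeR, adjusted p = 1.4e-44), which placed it at rank 50 from the lowest of 13318 genes. The other members ranked from 86 (NCAPG) to 1245 (NCAPD2).

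NCAPH2 of condensin II measured 90.6, 88.2 and 81.9 CPM in non-treated cells and 74.3, 76.0 and 71.9 CPM with ATRA. It measured 22.8, 23.9 and 24.6 CPM with CDK4/6i and 11.1, 15.2 and 13.6 CPM with CDK4/6i+ATRA. The 4 groups fell in this order without overlap. The log2 fold change of NCAPH2 was -0.23 ± 0.0532 with ATRA (edgeR, adjusted p = 1.7e-04). It was -1.87 ± 0.063 with CDK4/6i (edgeR, adjusted p = 1.2e-30) and -2.70 ± 0.0832 in the combination (edgeR, adjusted p = 7.3e-35). It kept 15.3% ± 2.36 (SD, n = 3) of the non-treated mean in the combination, against 1.11% for NCAPH. NCAPH2 shares 857 exon bases with SCO2 on the opposite strand, a gene with 10 counts in the combination libraries.

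**Figure D2:**
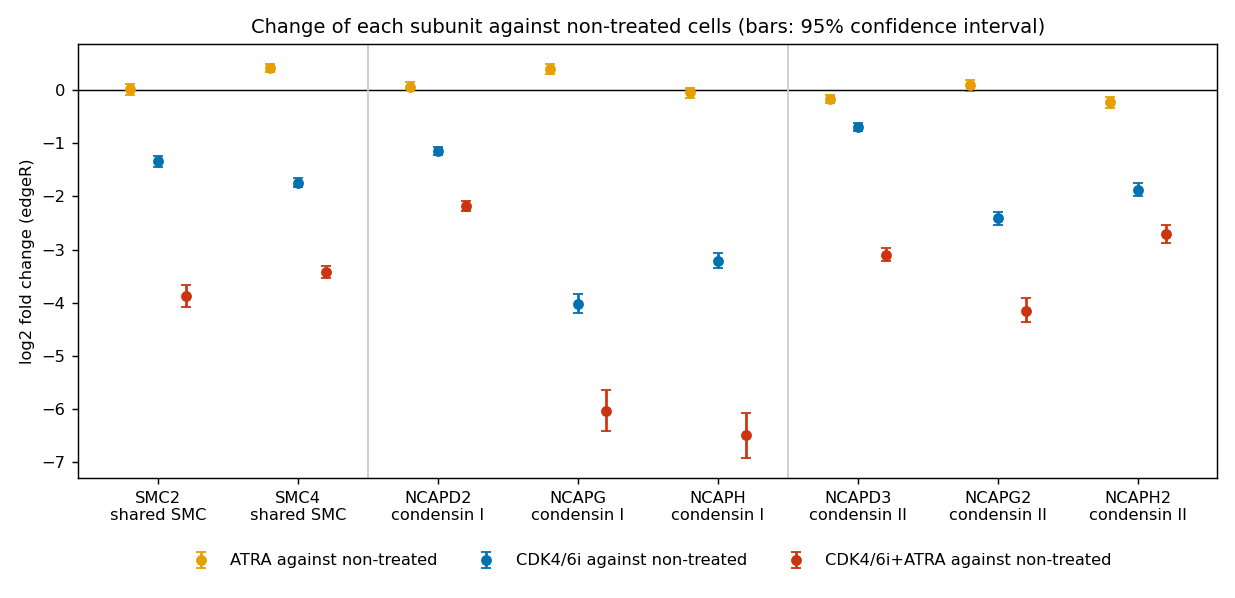
Log2 fold change against non-treated cells, with its 95% confidence interval, of each condensin gene for ATRA, CDK4/6i and CDK4/6i+ATRA. ATRA values lie between -0.23 and 0.42, and the combination values between -6.50 (NCAPH) and -2.18 (NCAPD2).

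Grouped by complex, the 3 condensin I genes had a median log2 fold change of -3.21 with CDK4/6i and -6.04 in the combination, with NCAPD2 far from the other two. The 3 condensin II genes had medians of -1.87 and -3.10, and the shared SMC genes of -1.54 and -3.65.

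Whether condensin I and condensin II counterparts changed unequally was asked within each library, from the log2 ratio of their CPM. An exact permutation test of 3 libraries against 3 cannot go below p = 0.1. The 4 groups were therefore also tested together, over 15400 partitions of the 12 libraries, a test added after the data were seen whose smallest p is 6.5e-05. That test asks whether a ratio differed anywhere among the 4 groups, not between a given pair of groups. The kleisin ratio NCAPH/NCAPH2, per kilobase of canonical transcript, was 0.79, 0.79 and 0.863 in non-treated cells and 0.892, 0.963 and 0.923 with ATRA. It was 0.313, 0.345 and 0.309 with CDK4/6i and 0.064, 0.0716 and 0.0402 with CDK4/6i+ATRA. The balance of the kleisin mRNAs thus moved toward condensin II in both CDK4/6i groups, without overlap with the others. The ratio fell by 3.84 on the log2 scale with the combination, 14.3-fold (exact permutation p = 0.1, adjusted p = 0.109 over 24 comparisons). Over the 4 groups the exact permutation p was 6.5e-05 (adjusted p = 1.3e-04 over 4 ratios).

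The ratio NCAPG/NCAPG2 moved the same way, from 0.92, 0.914 and 0.946 per kilobase in non-treated cells to 0.336, 0.304 and 0.277 with CDK4/6i. With ATRA it was 1.23, 1.1 and 1.12, and with CDK4/6i+ATRA 0.14, 0.282 and 0.306. The CDK4/6i and combination libraries overlapped, and their difference of -0.41 on the log2 scale (exact permutation p = 0.5) was -0.05 without library 1 of the combination. Against non-treated cells the log2 ratio changed by -1.61 with CDK4/6i and by -2.01 in the combination (exact permutation p = 0.1 each), and over the 4 groups the exact p was 7.1e-04 (adjusted p = 7.1e-04).

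The ratio NCAPD2/NCAPD3 went the other way in the combination. It was 2.43, 2.15 and 2.38 per kilobase in non-treated cells, 2.74, 2.71 and 2.73 with ATRA and 1.73, 1.81 and 1.57 with CDK4/6i. With CDK4/6i+ATRA it was 4.72, 3.91 and 4.57, above all other libraries. It thus fell by 0.45 on the log2 scale with CDK4/6i and rose by 0.92 with CDK4/6i+ATRA (exact permutation p = 0.1 each), and over the 4 groups the exact p was 6.5e-05 (adjusted p = 1.3e-04). With the combination the balance of the D subunit mRNAs thus moved toward condensin I, and the balances of the G subunits and kleisins toward condensin II.

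The ratio of the shared ATPases, SMC2/SMC4, stayed within a narrower range. Per kilobase it was 0.228, 0.237 and 0.236 in non-treated cells, 0.174, 0.181 and 0.175 with ATRA, 0.327, 0.302 and 0.298 with CDK4/6i and 0.157, 0.159 and 0.199 with CDK4/6i+ATRA. The ATRA and combination libraries overlapped, and the CDK4/6i libraries were above all others. Over the 4 groups the exact permutation p was 3.9e-04 (adjusted p = 5.2e-04). The changes of all 4 ratios do not depend on the length used, whereas their levels do. Per kilobase of union exons NCAPG/NCAPG2 was 1.74 and SMC2/SMC4 0.0978 in non-treated cells, against 0.927 and 0.234 here.

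**Figure D3:**
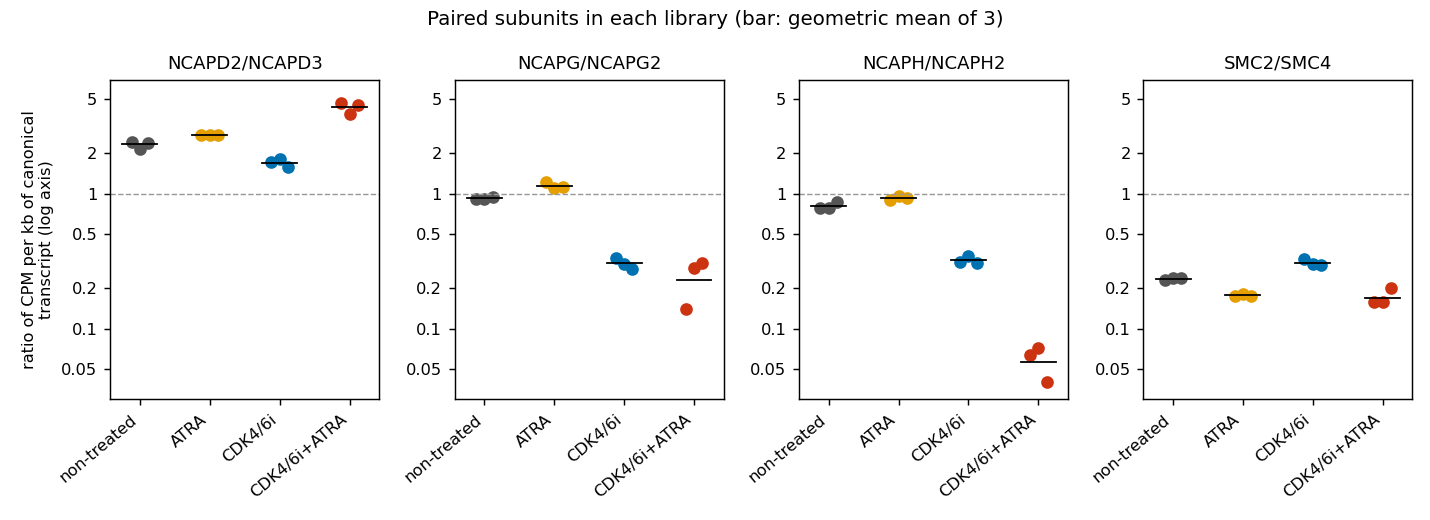
Ratio of the CPM per kilobase of canonical transcript (log axis) of 4 subunit pairs in each library, with a bar at the geometric mean of 3 and a dashed line at 1. NCAPH/NCAPH2 drops from 0.814 to 0.0569 and NCAPD2/NCAPD3 rises from 2.32 to 4.39 between non-treated and CDK4/6i+ATRA cells.

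Adding ATRA to CDK4/6i lowered all 8 genes further, against 39.5% of all genes called lower in that comparison, and their median log2 fold change was -1.88, that of all genes 0.00. The largest change was that of NCAPH, -3.29 ± 0.219 (edgeR, adjusted p = 5.4e-24). SMC2, at -2.53 ± 0.106, and NCAPD3, at -2.40 ± 0.0605, came next (edgeR, adjusted p = 8.0e-30 and 1.2e-37). NCAPH2 changed least, by -0.83 ± 0.0902 (edgeR, adjusted p = 5.1e-12). The other 4 genes changed by -2.02 (NCAPG) to -1.04 (NCAPD2).

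Adding CDK4/6i to ATRA also lowered all 8, against 32.8% of all genes, from -2.25 ± 0.0431 for NCAPD2 (edgeR, adjusted p = 2.7e-41) to -6.46 ± 0.213 for NCAPH (edgeR, adjusted p = 8.3e-44). NCAPG, at -6.44 ± 0.19, was level with NCAPH in this comparison. Between the single drugs, all 8 were lower with CDK4/6i than with ATRA, against 35.2% of all genes, from -0.53 ± 0.0411 for NCAPD3 (edgeR, adjusted p = 2.3e-16) to -4.42 ± 0.0849 for NCAPG (edgeR, adjusted p = 5.1e-45).

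The combination was then set beside the product of the single-drug folds. The interaction term of edgeR was below 0 and past the threshold in all 8 genes, against 27% of all genes tested, with a median of -2.17 against -0.02. NCAPH had the largest departure. Its measured mean was 1.41 ± 0.497 CPM (SD, n = 3) where the product of the single folds gave 13.4 CPM, an interaction of -3.25 ± 0.224 (edgeR, adjusted p = 1.0e-21). SMC2 measured 5.97 ± 0.525 CPM against 35.2 CPM, an interaction of -2.55 ± 0.116 (edgeR, adjusted p = 3.9e-26). NCAPD3 measured 28.9 ± 2.65 CPM against 137 CPM, an interaction of -2.24 ± 0.0725 (edgeR, adjusted p = 1.1e-30).

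The interactions of NCAPG (-2.42), SMC4 (-2.10), NCAPG2 (-1.82) and NCAPD2 (-1.11) lay between. NCAPH2 departed least, with 13.3 ± 2.05 CPM measured against 20.3 CPM and an interaction of -0.60 ± 0.105 (edgeR, adjusted p = 2.4e-06). Scaling by library size alone moved the median interaction of all genes to -0.34 and the share of negative calls among all called genes from 52.5% to 81.5%. All 8 condensin interactions remained negative and past the threshold with that scaling, at -0.92 for NCAPH2. Of all 13318 genes tested, 6061 had a negative call with it, against 3594 with TMM.

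**Figure D4:**
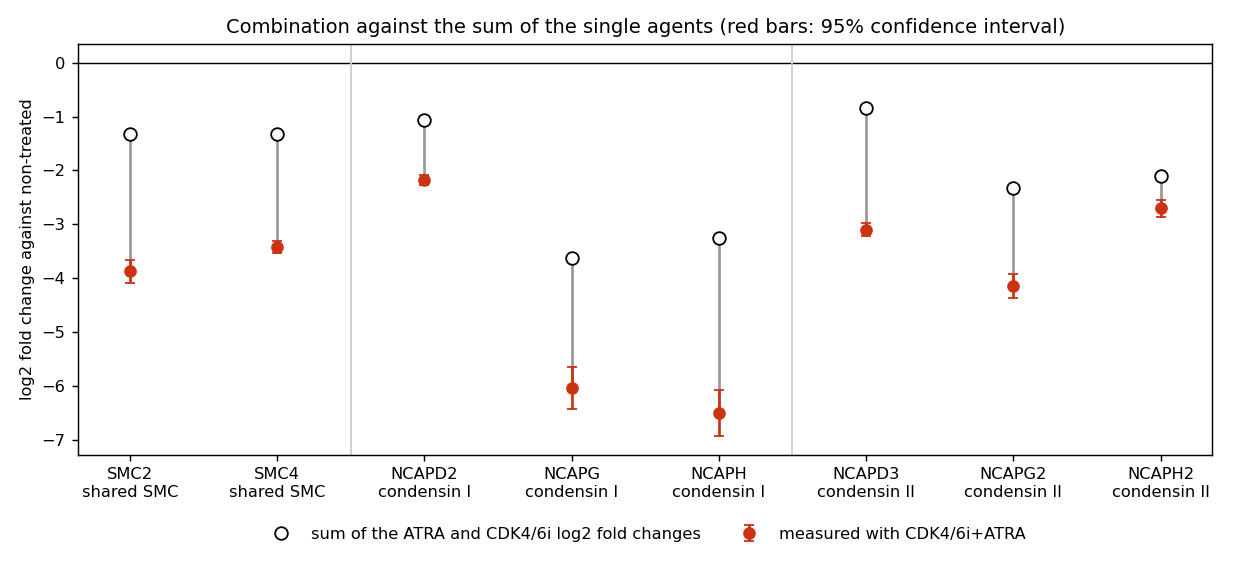
Log2 fold change against non-treated cells measured with CDK4/6i+ATRA (red, with 95% confidence interval) and the sum of the log2 fold changes of the single drugs (open circles) for each condensin gene. The measured value lies below the sum in all 8, with the longest gap in NCAPH (-6.50 against -3.25) and the shortest in NCAPH2 (-2.70 against -2.10).

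A list of 12 condensin partners held genes that act with condensin on chromosomes or regulate it. All 12 were called lower with CDK4/6i+ATRA, against 40.7% of all genes, with a median of -4.57. At the low end were MKI67, a coat protein of mitotic chromosomes, at -6.08 ± 0.0902, and CDK1, the mitotic kinase that phosphorylates condensin, at -6.04 ± 0.17 (edgeR, adjusted p = 5.6e-52 and 1.4e-45). At the high end were CSNK2A1, a catalytic subunit of casein kinase, at -0.34 ± 0.0387 and MCPH1, which restrains condensin II in interphase, at -0.32 ± 0.0978 (edgeR, adjusted p = 5.6e-11 and 0.00257). With CDK4/6i alone 10 of the 12 were lower (27.9% of all genes) and 1 higher (28.3%). With ATRA alone 3 were lower (35.5%) and 7 higher (32.1%).

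Cohesin and SMC5/6, the other SMC complexes, had smaller medians. Of 17 cohesin genes, 12 were lower (40.7% of all genes) and 4 higher (41% of all genes) with CDK4/6i+ATRA, with a median of -1.09. When scaled by library size alone, 13 were lower and 3 higher, and the shares of all genes moved the same way, to 48.3% and 32.9%. ESCO2 and CDCA5, which establish and protect cohesion in S phase and after, were lowest at -5.87 ± 0.4 and -5.86 ± 0.156 (edgeR, adjusted p = 2.2e-30 and 5.2e-47). ESCO2 was left with few counts in the combination, and its value ranged from -6.42 to -5.61 when each library was left out. NIPBL and MAU2, which load cohesin, were highest at 0.56 ± 0.04 and 0.73 ± 0.0436 (edgeR, adjusted p = 6.5e-18 and 7.2e-21). The core ring genes SMC1A and SMC3 were at -1.98 and -1.62, above SMC2 and SMC4.

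Of 9 SMC5/6 genes 7 were tested, of which 6 were lower (40.7% of all genes) and none higher (41% of all genes), with a median of -0.64. NSMCE4A and SMC6 were lowest at -2.40 ± 0.158 and -2.22 ± 0.0845 (edgeR, adjusted p = 3.5e-21 and 2.6e-30). SMC5 was at -0.30 ± 0.0544 (edgeR, adjusted p = 3.2e-06), and NSMCE2 was not called at -0.07 ± 0.129 (edgeR, adjusted p = 0.619). All genes tested had a median of 0.02 in the same comparison. The lists describe these genes by count and median, and their differences were not tested. The cohesin list mixes subunits with loaders and other regulators, whereas the condensin list holds subunits only, so their medians are not like for like.

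**Figure D5:**
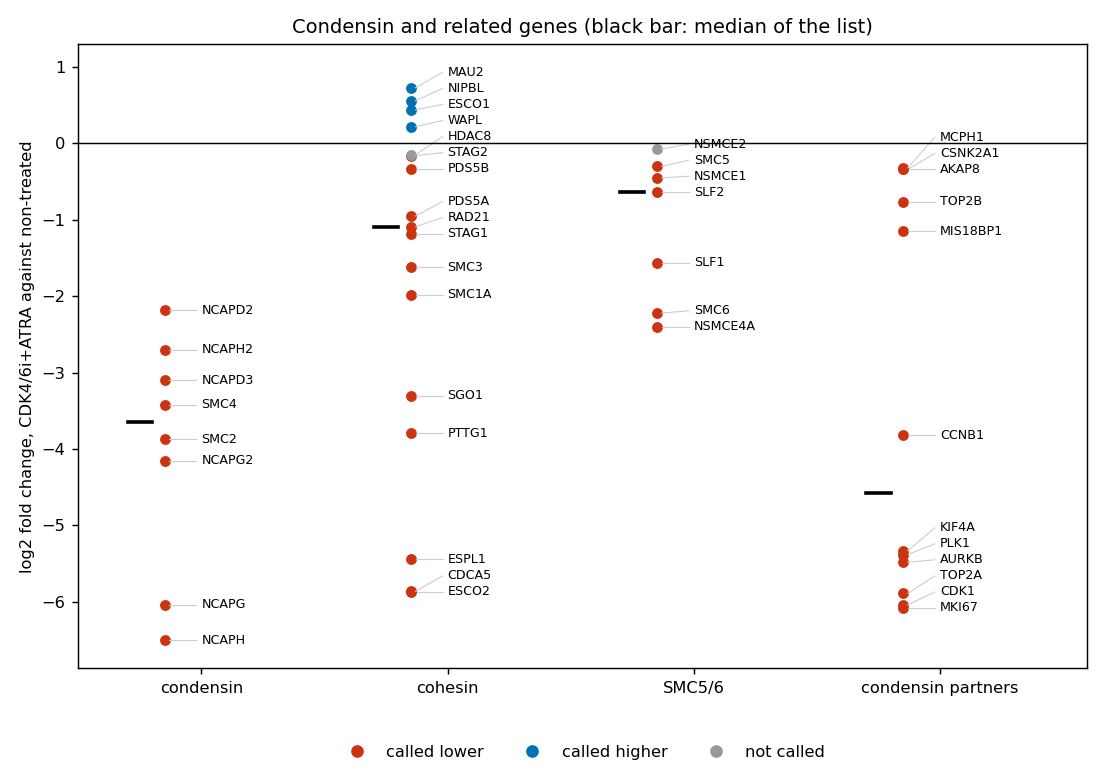
Log2 fold change, CDK4/6i+ATRA compared with non-treated cells, of the condensin, cohesin, SMC5/6 and condensin partner genes that were tested, coloured by call, with a bar at the median of each list. The 8 condensin genes lie between -6.50 and -2.18, whereas cohesin genes spread from -5.87 to 0.73.

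Genes with the most similar pattern were sought among all 13318 by the root mean square difference of the 3 log2 fold changes against non-treated cells, over the 4 group means. The nearest to NCAPG were TOP2A, the mitotic DNA topoisomerase, with a difference of 0.191, and SPC24, a kinetochore gene, with 0.21. The nearest to NCAPH were KIF15 (0.154) and SKA3 (0.326), a mitotic kinesin and a kinetochore gene. SMC2 was nearest to GINS4 (0.12) and TRAIP (0.166), and SMC4 to STIL (0.165) and KIF24 (0.188). GINS4 encodes a part of the replicative helicase, and STIL a centriole assembly factor.

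NCAPG2 was nearest to FANCI (0.0988), a DNA crosslink repair gene, and H2AX (0.167), and NCAPH2 to CHAF1A (0.0363), a histone chaperone gene, and SMAD9 (0.061). NCAPD2 was nearest to ANKRD9 (0.0775) and CENPQ (0.104), and NCAPD3 to SLFN13 (0.0716) and FBF1 (0.0769). SMAD9, at a mean of 0.345 CPM, FBF1 and SLFN13 were low, so that their values rest on few counts. Means were also low for ANKRD9 (4.06 CPM) and H2AX (5.33 CPM). SPC24, KIF15, SKA3, TRAIP and KIF24 were low in the combination, so that their values there rest on few counts too. On a log2(CPM + 1) scale 4 of the 16 nearest genes were the same, namely STIL, TOP2A, FANCI and CHAF1A. Among the members themselves the smallest differences were those of SMC2 and SMC4 (0.42), NCAPD2 and NCAPH2 (0.549), SMC4 and NCAPH2 (0.565), SMC2 and NCAPD3 (0.592) and NCAPG and NCAPH (0.596), which lay within and across the complexes. NCAPG and NCAPD2, both of condensin I, were 2.78 apart.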

How the data were processed

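RNA-Seq of HL60 cells covered 12 libraries in 4 groups of 3, which the labels name. Per the submitters' notes and the study's methods, the authors trimmed reads with Trimmomatic 0.33, aligned them with STAR 2.7.11a to hg38 with gene models of NCBI RefSeq, and deposited raw counts per gene, whole numbers without normalization. The study names RSEM for counting, while the columns of positions and lengths have the layout of featureCounts. The deposited columns of gene length, chromosome and exon positions were used for lengths and overlaps.

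The counts were filtered with filterByExpr on the 4 groups, scaled by TMM and fitted in edgeR 4.0.16 (R 4.3.3) with a model of the 4 groups and 8 residual degrees of freedom, in place of the DESeq2 of the authors. Quasi-likelihood tests gave 6 pairwise comparisons and the interaction, each adjusted by the Benjamini-Hochberg method over 13318 genes, with a threshold of 0.05. The tests were tried on simulated counts first. Ratios of subunits were tested by two-sided exact permutation of libraries, over 24 comparisons of 3 against 3 (adjusted p at least 0.109) and over the 4 groups together. Between libraries of a group, chi-square divided by its degrees of freedom was 1.85 to 6.81, so none was counted as a duplicate. Standard errors and 95% intervals are Wald values from the weights and quasi-likelihood dispersion of the edgeR fit, held at or above counting error, and the floor of 3 counts covers counting error only.

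The condensin genes and all lists were chosen with earlier results of these data known. Named genes were the 8 condensin genes, the 2 lowest and 2 highest genes of each related list in the combination among those with a mean of at least 5 CPM, the 2 nearest genes of each condensin gene and the markers. SMC1A, SMC3, LCORL, DCAF16, JAM3, VPS26B and SCO2 were named for their role or position. Levels per kilobase used the canonical transcript of GENCODE v44 or the union of exons. Python 3.11.15, numpy 2.4.6, pandas 2.3.3 and matplotlib 3.10.9 were used. Other settings tried were no filter or at least 10 counts in every library, library size alone or the size factors of DESeq2, the test of DESeq2 1.42.0, only the groups compared, the replicate block, each library left out, 0.5 added to each count and a log2(CPM + 1) scale. The 4-group ratio test and the canonical length were added after the data were seen.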

Additional observations from a re-analysis of the deposited data

Results flagged for a closer look

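The effect of ATRA differed with and without CDK4/6i in all 8 condensin genes, by the interaction term of edgeR's quasi-likelihood test. Of all 13318 genes tested, 27% had an interaction called below 0, as these 8 had, and 6852 were called in either direction. The log2 interaction was -3.25 for NCAPH, -2.55 for SMC2, -2.42 for NCAPG, -2.24 for NCAPD3, -2.10 for SMC4, -1.82 for NCAPG2, -1.11 for NCAPD2 and -0.60 for NCAPH2. For SMC4 and NCAPG the direction of the ATRA effect also turned, from a rise without CDK4/6i to a fall with it. No outlier test was run within the groups of 3 libraries.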

How the results depend on the processing

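In the 6 comparisons other than ATRA against non-treated cells, the 48 log2 fold changes of the condensin genes kept their direction and their side of the threshold in all 904 alternative values, and the counts of condensin genes called stayed at 8. With ATRA alone the calls of SMC4, NCAPG, NCAPD3 and NCAPH2 held in all alternatives, whereas the count called higher went from 2 to 4 with DESeq2's size factors, with library size alone, with at least 10 counts in every library and with only the groups compared, and was 2 to 4 when each library was left out (4 without ATRA library 1). The added calls were NCAPD2 (0.10 to 0.13) and NCAPG2 (0.12 to 0.14). NCAPD2 alone was also called with DESeq2 (0.11), without non-treated library 3 (0.09) and without CDK4/6i+ATRA library 1 (0.07). The uncalled SMC2 value of 0.02 ranged from -0.01 to 0.04 when each library was left out, turning to -0.01 without non-treated library 1 and to -0.00 without ATRA library 2, and that of NCAPH (-0.04) to 0.01 with only the groups compared. The cause was not tested. NSMCE2 was called with library size alone (-0.34, edgeR, adjusted p = 0.0197), where the median of all genes in the combination was -0.25 and 59.5% of calls were lower against 49.8% with TMM. That share was 63.3% against 50.2% for ATRA added to CDK4/6i and 68.4% against 47% for CDK4/6i added to ATRA. The interaction without a filter had 62.1% negative calls.

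The replicate numbers did not pair the libraries. Same-numbered libraries of different groups had correlations of -0.114 to 0.07 and 2 of 12 libraries correlated best with their own number. With the replicate block 10824 genes were called in the combination against 10885 without it, and the interaction had 6775 against 6852. The block changed no call of a condensin gene. The 4-group p of the ratios stayed at or below 0.0027 with 0.5 added to each count or a library left out. Leaving out combination library 1 took the log2 change of NCAPG/NCAPG2 against CDK4/6i from -0.41 to -0.05, and that of SMC2/SMC4 against ATRA from -0.05 to 0.01. Depth limits NCAPG and NCAPH in the combination, at 10 to 27 counts per library. It also limits ESCO2 and several of the nearest genes there.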
